A study of Mus musculus with 16 samples.

Results

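Interferon-stimulated genes were followed in the corpus callosum of mice fed cuprizone (CPZ), a copper chelator that kills oligodendrocytes and strips myelin, and of mice returned to regular diet. The set was a list of 36 genes that type I interferon is known to induce, and it was chosen with earlier results of these data known. Shares of the set given beside shares of all genes are therefore descriptive and no independent test. The 36 genes were sought on the array by the accession of each probe. Of these, 34 had at least 1 probe, 50 probes in all among the 41153 with values, and 33 genes passed the filter on dim signals, out of 20603 genes tested. No expression value is given for Mx1 and Dtx3l, because no probe accession matched them in the gene table used, and Dtx3l enters only the promoter counts. Oas3 was left out of the tests because in no group did all arrays show either of its 2 probes well above background.

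RNA from punched corpus callosum of male C57BL/6 mice was measured on 16 single-colour Agilent arrays. The study's methods give 7 to 8 weeks as the age of the mice included, and not the age of each group when RNA was taken. Untreated mice on normal chow gave 3 arrays. Mice fed CPZ gave 3 arrays after 2 weeks and 4 arrays after 4 weeks, and another 6 arrays came from mice fed CPZ for 4 weeks and then regular diet. The chow held 0.2% CPZ by the methods and 0.2 to 0.4% by the sample labels, and untreated mice were matched in age and sex to the group fed CPZ for 4 weeks. No match in age is given for the 2-week and regular diet groups, and a part of age in those comparisons was not tested. The methods describe 2 and 14 days of regular diet, which the labels do not separate, so these 6 arrays were used as 1 group of mixed times. The methods give 3 to 6 mice for each condition, which is also the range of arrays in a group, and the labels do not tie single arrays to mice.

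Type I interferons signal through a receptor on nearly every cell to a transcription factor complex that includes STAT2 and IRF9 and binds interferon-stimulated response elements in the promoters of its target genes. The targets include sensors of viral RNA and DNA, enzymes and membrane proteins that block viral replication, the ubiquitin-like modifier ISG15 and its protease USP18, and IRF7, which amplifies further interferon production. In the brain, microglia, astrocytes and endothelial cells can all switch on these genes, in infection and also in sterile injury and demyelination. In bulk tissue a change in the number of expressing cells and a change in RNA per cell cannot be told apart.

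The promoters of several members hold the core letters of the response element. Of the 36 genes, 26 had a promoter window in the RefSeq table on GRCm38.p6, from 250 bases before to 50 bases after the transcription start. The core of the response element was searched as 2 copies of GAAA with 2 bases of any kind between them, on either strand. It occurred in 14 of these 26 genes (53.8%) in 23 of 82 other genes of the interferon pathway (28%) and in 1079 of all 27025 genes in the table (3.99%). TTCNNNGAA, the letters of the gamma-activated site, occurred in 5 of the 26 genes (19.2%), in 24.4% of the other pathway genes and in 9.55% of all genes, and the 2 motifs overlapped in 2 of 31 windows of members. The stretches below are of members that hold a match and had large changes, with every match of that core in capitals, each read 5′ to 3′ on the strand of its gene, and Stat2 is shown as a member that changed little and still holds a match.
Isg15, chr4:156200855-156200916, minus strand: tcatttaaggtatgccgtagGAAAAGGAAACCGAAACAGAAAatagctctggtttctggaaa
Ifit1, chr19:34640765-34640833, plus strand: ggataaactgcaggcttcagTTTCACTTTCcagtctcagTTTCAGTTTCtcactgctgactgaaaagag
Ifit3, chr19:34583353-34583436, plus strand: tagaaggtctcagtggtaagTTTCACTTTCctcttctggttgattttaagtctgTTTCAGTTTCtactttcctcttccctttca
Gbp3, chr3:142559979-142560034, plus strand: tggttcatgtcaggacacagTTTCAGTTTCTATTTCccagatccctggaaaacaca
Bst2, chr8:71537567-71537622, minus strand: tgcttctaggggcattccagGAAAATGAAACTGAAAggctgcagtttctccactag
Stat2, chr10:128270256-128270305, plus strand: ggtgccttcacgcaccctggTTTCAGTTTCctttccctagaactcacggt
In Isg15, 3 matches ran into each other between 57 and 78 bases before the start, and Ifit1 and Ifit3 each held 2 separate matches. The match of Stat2 lay farther out, 213 to 222 bases before its start. Among members with large changes, Lgals3bp, Oasl2, Ifi44 and Irf7 had a window without a match. A match is a run of letters and was not tested for binding.

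Values are log2 and relative to the median of the 3 untreated arrays, probe by probe, so that 1 unit is a 2-fold difference. The deposited table names its columns by sample and the scanner files are also recorded by sample, but 14 of 16 columns matched the scanner file of another sample, 13 of them of another group. The columns of the table were followed. Under the recorded files, no member passed the test in any comparison with untreated arrays, and the member medians were 0.59, -0.55 and -0.089 after 2 weeks of CPZ, after 4 weeks and on regular diet, so every result that follows depends on this assignment. Arrays also differed in quality, with 57.3 to 72.2% of probes well above background. Regular diet arrays 1 and 2 stood apart from the other 4 of their group and are described below.

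**Figure D1:**
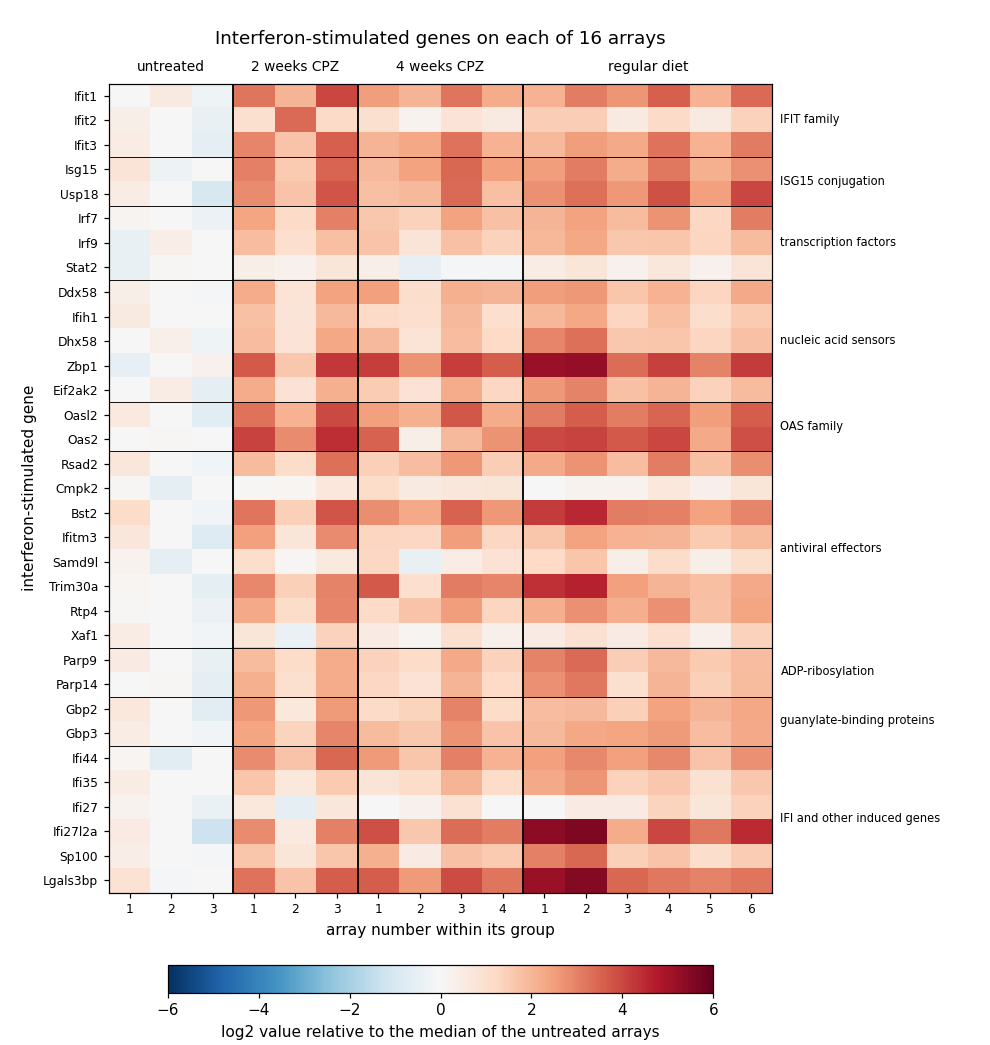
Each row is 1 of the 33 tested genes, grouped by role, and each column 1 of 16 arrays; the colour is the log2 value relative to the median of the untreated arrays. Most rows are above 0 on all arrays of CPZ-fed and regular-diet mice, 2-week array 2 is the palest of its group, and Ifi27l2a and Lgals3bp reach 5.62 and 5.49 on regular diet array 2.

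Interferon-stimulated genes measured higher than in untreated tissue at every stage, and all 33 tested members had a log2 fold change above 0 in each of the 3 comparisons. The median log2 change of the members was 1.95 after 2 weeks of CPZ, 1.67 after 4 weeks and 2.20 on regular diet, beside 0.052, -0.041 and -0.0068 over all genes tested. With normexp background correction the member medians were lower, at 1.02, 0.86 and 1.11. These 3 comparisons share the untreated arrays. Every array of the treated group was above every untreated array for 29 of 33 members after 2 weeks, 28 after 4 weeks and 30 on regular diet, where 8.24%, 5.36% and 5.08% of all genes did so in that direction.

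A gene was called when its probe had an adjusted p under 0.05 in limma's moderated test and a change of at least 2-fold. The adjustment was Benjamini-Hochberg over all 27778 probes tested, while the shares are of genes. After 2 weeks of CPZ, 5 of 33 members rose by this rule, Ifi44, Oasl2, Ifit1, Gbp3 and Ifit3, with 0.116% of all genes called higher. After 4 weeks none was called by limma, with 0.0146% of all genes called higher, although 28 members had an unadjusted p under 0.05 in that direction, as did 5.17% of all genes. On regular diet 22 of 33 members rose, with 0.864% of all genes called higher, and they made up 12.4% of the 178 genes called. The filter let in 5 members through the treated groups, since Oas2, Zbp1, Ifi44, Dhx58 and Samd9l were not well above background on every untreated array. Among the other 28 members, 4 were called after 2 weeks, 0 after 4 weeks and 18 on regular diet. An unadjusted p under 0.05 in that direction was reached by 29 members after 2 weeks and 32 on regular diet, against 4.68% and 6.30% of all genes. No member fell in any comparison, with 0.00% of all genes called lower against untreated arrays. The methods' test, an analysis of variance over the groups with a post-test, passed 40 genes in all after adjustment and called no member against untreated arrays.

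These counts moved with the arrays in the fit. Without untreated array 3 no member was called on regular diet, and 8 and 14 were called without untreated arrays 2 and 1, among 4, 51 and 88 of all genes, while the member median stayed between 1.98 and 2.34 over all arrays left out singly. Without 2-week array 2 there were 15 calls after 2 weeks and 6 after 4 weeks, among 64 and 15 of all genes, and without untreated array 1 there were 6 after 4 weeks, among 188. At 2 weeks the count fell to 0 without any 1 untreated array, 2-week array 1 or 3, 4-week array 4 or regular diet array 1, and was 1 to 3 without 4-week array 1 or 2 or any of regular diet arrays 2 to 6. With normexp background correction 0, 0 and 8 members were called after 2 weeks, after 4 weeks and on regular diet, among 3, 0 and 36 of all genes. With slide as a block 10, 16 and 25 were called, among 35, 55 and 208 of all genes. Within single slides, the median difference of the members from the untreated array was 2.18 at 2 weeks on slide 1, 2.43 and 2.04 at 4 weeks on slides 2 and 3, and 2.02, 2.50 and 2.35 on regular diet on slides 1, 2 and 3.

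**Figure D2:**
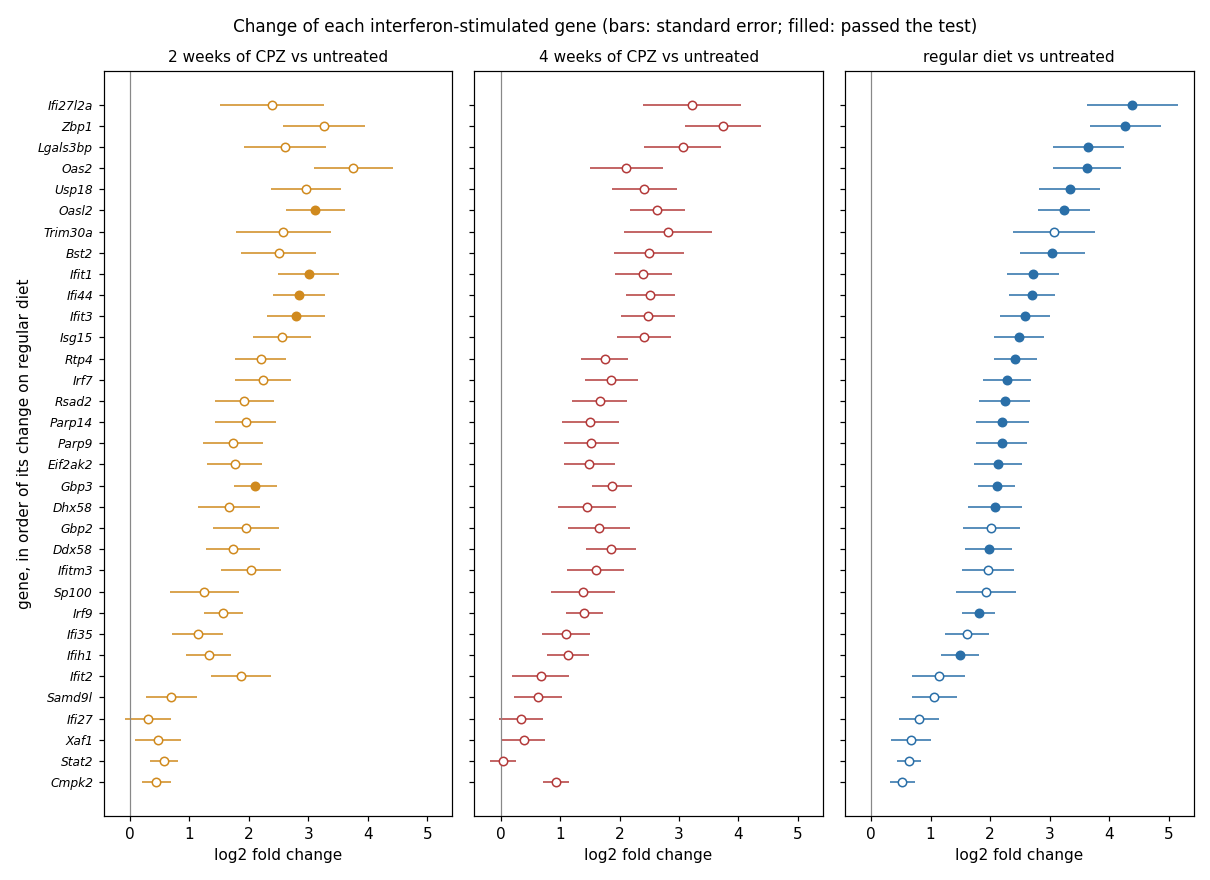
The log2 fold change of each of the 33 members against untreated arrays is shown with its standard error, and filled points passed the test. All points lie above 0, 5 are filled after 2 weeks of CPZ, none after 4 weeks and 22 on regular diet. The points of Oas2 are set against untreated arrays that were not above background.

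The IFIT proteins bind viral RNA and block its translation. Ifit1 measured 0.00, 0.55 and -0.27 on the untreated arrays, 3.21, 2.05 and 4.03 after 2 weeks, 2.51, 2.02, 3.21 and 2.23 after 4 weeks, and from 2.08 through a median of 2.87 to 3.60 on regular diet. Ifit3 measured 0.45, 0.00 and -0.59 on the untreated arrays, 2.95, 1.70 and 3.57 after 2 weeks, 2.04, 2.31, 3.26 and 2.10 after 4 weeks, and from 1.97 through 2.38 to 3.27 on regular diet. No treated array of either gene overlapped the untreated ones. Ifit1 rose 8.01-fold after 2 weeks (adjusted p = 0.0401) and 6.63-fold on regular diet (adjusted p = 0.0106). Ifit3 rose 6.91-fold after 2 weeks (adjusted p = 0.0489) and 5.98-fold on regular diet (adjusted p = 0.0109). Mice carry a near-identical copy of Ifit3, and the files do not say whether the probe tells them apart. Ifit2 gave a lower and uneven signal. Its brighter probe stood at 3.38 on 2-week array 2 against 0.95 and 1.16 on the other 2-week arrays, while its second probe stood at -0.19 on that same array. The probes of Ifit2 thus disagreed on that array, and neither passed the test in any comparison with untreated arrays.

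ISG15 is a small ubiquitin-like protein that is conjugated to other proteins, and USP18 removes it and also damps the interferon receptor. Isg15 measured 0.76, -0.32 and 0.00 on the untreated arrays, 3.04, 1.57 and 3.51 after 2 weeks, 1.93, 2.42, 3.45 and 2.44 after 4 weeks, and from 2.13 through 2.62 to 3.18 on regular diet. Usp18 measured 0.43, 0.00 and -0.97 on the untreated arrays, 2.85, 1.70 and 3.77 after 2 weeks, 1.82, 1.93, 3.38 and 1.83 after 4 weeks, and from 2.48 through 3.02 to 4.03 on regular diet. Both genes were clear of the untreated range on all 13 other arrays. On regular diet Isg15 rose 5.62-fold (adjusted p = 0.0137) and Usp18 10.1-fold (adjusted p = 0.00695). After 2 weeks their log2 changes were 2.56 and 2.96, with adjusted p of 0.0693 and 0.073.

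**Figure D3:**
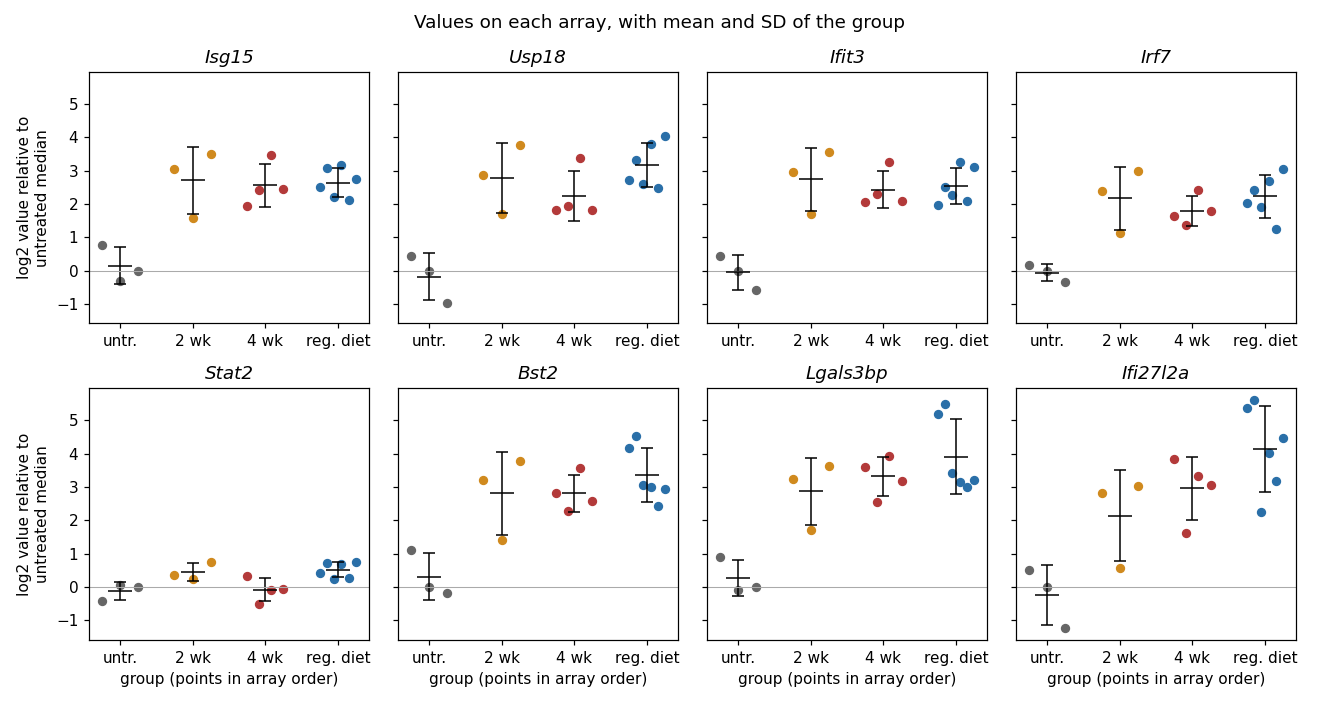
Points are single arrays of 8 genes in array order within each group, on the log2 scale relative to the untreated median, with the group mean and SD as bars. Isg15, Usp18, Ifit3, Irf7, Bst2 and Lgals3bp lie clear of the untreated arrays in all 3 other groups, Stat2 stays below 1 throughout, and Lgals3bp and Ifi27l2a have their 2 highest points on regular diet arrays 1 and 2.

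The transcription factors of the pathway did not move alike. Irf7 measured 0.15, 0.00 and -0.34 on the untreated arrays, 2.37, 1.14 and 3.00 after 2 weeks, 1.62, 1.36, 2.43 and 1.78 after 4 weeks, and from 1.25 through 2.23 to 3.06 on regular diet. Irf9, the DNA-binding partner of STAT2, measured -0.42, 0.39 and 0.00 on the untreated arrays, 1.87, 1.03 and 1.78 after 2 weeks, 1.70, 0.75, 1.75 and 1.39 after 4 weeks, and from 1.27 through 1.78 to 2.33 on regular diet. Both rose on regular diet, Irf7 4.87-fold (adjusted p = 0.0175) and Irf9 3.50-fold (adjusted p = 0.00922). Stat2 stayed near the controls, at -0.43, 0.06 and 0.00 on the untreated arrays, 0.35, 0.25 and 0.75 after 2 weeks, 0.33, -0.51, -0.10 and -0.05 after 4 weeks, and from 0.25 through 0.56 to 0.76 on regular diet. Its 2-week and regular diet arrays lay above the untreated range and its 4-week arrays overlapped it. The change of Stat2 on regular diet was 0.64 ± 0.20 (log2, SE), with an adjusted p of 0.218.

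The sensors of foreign or misplaced nucleic acid were all 5 called on regular diet, beside 0.864% of all genes called higher. Zbp1, a sensor of left-handed nucleic acid, measured -0.52, 0.00 and 0.25 on the untreated arrays, 3.67, 1.63 and 4.22 after 2 weeks, 4.14, 2.71, 4.14 and 3.65 after 4 weeks, and from 2.99 through 4.14 to 5.29 on regular diet, with 1 of 3 untreated arrays well above background. No array of a treated group overlapped the untreated ones. Zbp1 rose 19.4-fold on regular diet (adjusted p = 0.00491), a fold that is 11.9 when the untreated arrays not above background are set to the faintest signal well above background, and after 4 weeks its log2 change of 3.75 had an adjusted p of 0.0947, with a fold of 13.4 as measured and 8.25 with those arrays so set.

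Ddx58, which encodes the RNA sensor RIG-I, measured 0.34, 0.00 and -0.09 on the untreated arrays, 2.25, 0.81 and 2.39 after 2 weeks, 2.48, 1.06, 2.14 and 2.06 after 4 weeks, and from 1.27 through 2.16 to 2.59 on regular diet. Ifih1, which encodes the RNA sensor MDA5, measured 0.53, 0.00 and -0.04 on the untreated arrays, 1.76, 0.77 and 1.92 after 2 weeks, 1.17, 1.02, 1.97 and 1.03 after 4 weeks, and from 1.05 through 1.67 to 2.33 on regular diet. Dhx58, which encodes LGP2, a regulator of both, measured 0.00, 0.31 and -0.27 on the untreated arrays, 1.87, 0.83 and 2.32 after 2 weeks, 1.96, 0.84, 1.85 and 1.21 after 4 weeks, and from 1.27 through 1.72 to 3.32 on regular diet. Dhx58 was well above background on 2 of 3 untreated arrays. For each of these 3 genes the lowest treated value was above the highest untreated one. Eif2ak2, which encodes the RNA-dependent kinase PKR, measured 0.00, 0.45 and -0.52 on the untreated arrays, 2.24, 0.86 and 2.11 after 2 weeks, 1.52, 0.88, 2.24 and 1.24 after 4 weeks, and from 1.38 through 1.97 to 2.96 on regular diet. These 4 rose by 2.82-fold (Ifih1) to 4.39-fold (Eif2ak2) on regular diet. A second probe of Ifih1 gave a log2 change of 0.88 there and did not pass (adjusted p = 0.446), whereas the used probe gave 1.50 (adjusted p = 0.0471).

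The OAS enzymes make a second messenger that activates an RNA-degrading nuclease. Oasl2 measured 0.61, 0.00 and -0.63 on the untreated arrays, 3.26, 2.10 and 3.96 after 2 weeks, 2.47, 2.13, 3.71 and 2.21 after 4 weeks, and from 2.51 through 3.30 to 3.64 on regular diet. It rose 8.68-fold after 2 weeks (adjusted p = 0.0335) and 9.49-fold on regular diet (adjusted p = 0.00491). None of the untreated arrays showed Oas2 well above background, so only a bound can be given. It was at least 4.36-fold higher on regular diet, where all 6 arrays were well above background (adjusted p = 0.00953). After 2 weeks it was at least 4.74-fold higher with 3 of 3 arrays above background, and after 4 weeks at least 1.53-fold with 2 of 4.

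Among the antiviral effectors, 3 of 8 rose on regular diet, beside 0.864% of all genes called higher. Bst2, the tetherin that holds budding virus at the cell surface, measured 1.12, 0.00 and -0.18 on the untreated arrays, 3.23, 1.41 and 3.79 after 2 weeks, 2.81, 2.28, 3.56 and 2.59 after 4 weeks, and from 2.43 through 3.03 to 4.53 on regular diet. Rsad2, which encodes viperin, measured 0.70, 0.00 and -0.19 on the untreated arrays, 1.89, 1.1 and 3.28 after 2 weeks, 1.42, 1.85, 2.59 and 1.49 after 4 weeks, and from 1.82 through 2.50 to 3.05 on regular diet. Rtp4 measured 0.08, 0.00 and -0.36 on the untreated arrays, 2.27, 1.11 and 2.93 after 2 weeks, 1.13, 1.71, 2.50 and 1.29 after 4 weeks, and from 1.77 through 2.29 to 2.75 on regular diet. For each of these 3 genes every treated array was above every untreated one. On regular diet Bst2 rose 8.24-fold (adjusted p = 0.0172), Rsad2 4.74-fold (adjusted p = 0.0238) and Rtp4 5.38-fold (adjusted p = 0.00695).

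Ifitm3, which blocks viral entry at the membrane, measured 0.67, 0.00 and -0.77 on the untreated arrays, 2.45, 0.72 and 2.85 after 2 weeks, 1.27, 1.26, 2.51 and 1.22 after 4 weeks, and from 1.58 through 1.97 to 2.39 on regular diet. Its log2 change of 1.97 on regular diet missed the threshold (adjusted p = 0.0535). Trim30a measured 0.10, 0.00 and -0.54 on the untreated arrays, 2.87, 1.44 and 2.99 after 2 weeks, 3.68, 1.01, 3.08 and 2.91 after 4 weeks, and from 1.79 through 2.37 to 4.61 on regular diet. Its used probe did not pass on regular diet (log2 change 3.07, adjusted p = 0.0558), but its second probe did (log2 change 3.61, adjusted p = 0.00639). Cmpk2, Samd9l and Xaf1 gave log2 changes of 0.52, 1.06 and 0.67 on regular diet and none passed. Cmpk2 lies next to Rsad2 in the genome, and its regular diet arrays, at 0.02 to 0.72, overlapped the untreated ones.

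PARP9 and PARP14 attach ADP-ribose to proteins, and the guanylate-binding proteins coat intracellular pathogens. Parp9 measured 0.47, 0.00 and -0.45 on the untreated arrays, 1.91, 1.1 and 2.21 after 2 weeks, 1.36, 1.1, 2.29 and 1.38 after 4 weeks, and from 1.47 through 1.90 to 3.41 on regular diet. Parp14 measured 0.00, 0.06 and -0.56 on the untreated arrays, 2.13, 0.94 and 2.25 after 2 weeks, 1.25, 0.89, 2.04 and 1.18 after 4 weeks, and from 0.97 through 1.97 to 3.16 on regular diet. On regular diet Parp9 rose 4.58-fold (adjusted p = 0.0289) and Parp14 4.61-fold (adjusted p = 0.032). A second probe of Parp14, well above background on 2 of 3 untreated arrays, gave a log2 change of 2.70 there (adjusted p = 0.0381). Gbp3 measured 0.46, 0.00 and -0.15 on the untreated arrays, 2.35, 1.35 and 2.93 after 2 weeks, 1.92, 1.60, 2.69 and 1.71 after 4 weeks, and from 1.87 through 2.29 to 2.54 on regular diet. It rose 4.30-fold after 2 weeks (adjusted p = 0.0469) and 4.31-fold on regular diet (adjusted p = 0.00659). Gbp2 had a similar log2 change of 2.02 on regular diet and a wider spread, and did not pass (adjusted p = 0.0718).

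Ifi27l2a and Lgals3bp had the largest changes on regular diet of the members well above background on every array, and both were highest on regular diet arrays 1 and 2. On arrays 3 to 6 Lgals3bp reached at most 3.44, below the highest values of Usp18 (4.03) and Oasl2 (3.62) there. Its rank thus rested on arrays 1 and 2. Ifi27l2a reached 4.46 on arrays 3 to 6. Ifi27l2a, an interferon-induced mitochondrial protein, measured 0.51, 0.00 and -1.24 on the untreated arrays, 2.83, 0.57 and 3.02 after 2 weeks, 3.85, 1.63, 3.33 and 3.06 after 4 weeks, and from 2.24 through 4.25 to 5.62 on regular diet. Lgals3bp, a secreted glycoprotein that binds galectins, measured 0.89, -0.09 and 0.00 on the untreated arrays, 3.24, 1.72 and 3.65 after 2 weeks, 3.61, 2.57, 3.92 and 3.19 after 4 weeks, and from 2.99 through 3.33 to 5.49 on regular diet. On regular diet Ifi27l2a rose 21.0-fold (adjusted p = 0.0153) and Lgals3bp 12.5-fold (adjusted p = 0.0109). Their log2 changes after 4 weeks, 3.21 and 3.06, had adjusted p of 0.237 and 0.148.

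Ifi44 measured 0.14, -0.69 and 0.00 on the untreated arrays, 2.82, 1.73 and 3.44 after 2 weeks, 2.54, 1.66, 3.02 and 2.11 after 4 weeks, and from 1.71 through 2.62 to 2.88 on regular diet, with 1 of 3 untreated arrays well above background. It rose 7.18-fold after 2 weeks (adjusted p = 0.03) and 6.54-fold on regular diet (adjusted p = 0.00491), or 6.03-fold and 5.48-fold with its dim untreated arrays raised in the same way. Ifi35 measured 0.45, 0.00 and -0.02 on the untreated arrays, 1.66, 0.62 and 1.55 after 2 weeks, 0.77, 1.1, 2.04 and 1.08 after 4 weeks, and from 0.93 through 1.63 to 2.67 on regular diet. The arrays of Ifi35 did not overlap the controls, but its log2 change of 1.61 on regular diet did not pass (adjusted p = 0.0605). Sp100, a nuclear body protein, and Ifi27 gave 1.93 and 0.80 there and did not pass, and the regular diet arrays of Ifi27 overlapped the controls.

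No difference between the stages after the start of CPZ was established for these genes. Between regular diet and 4 weeks of CPZ no member was called, with 0.00485% of all genes called higher. Before adjustment, p was under 0.05 for 2 members with a higher value (Oas2 and Stat2) and 1 with a lower (Cmpk2), beside 15.5% and 11.1% of all genes. The median difference of the members was 0.46 on the log2 scale, positive for 32 of 33 and for 52.8% of all genes. Within slides 2, 3 and 4 it was 0.20, 0.14 and 0.36, positive for 24, 20 and 29 members, beside a spread of 0.54 between arrays of a group. For Isg15 the difference was 0.077 with a 95% interval from -0.75 to 0.90, and for Zbp1 0.53 with an interval from -0.63 to 1.68.

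Between 4 and 2 weeks of CPZ no member was called either, beside 0.0825% of all genes in the higher direction and 0.184% in the lower. Before adjustment, p was under 0.05 for 1 member with a higher value after 4 weeks (Cmpk2) and 3 with a lower (Stat2, Ifit2 and Oas2), beside 5.74% and 13.4% of all genes. The median difference of the members was -0.21, and on the single slide that held both groups, with 1 array of 2 weeks, it was 0.39. For Stat2 the difference was -0.53, with a 95% interval from -0.997 to -0.063. The difference of Ifit2 rested on the probe that read high on 2-week array 2.

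Arrays of a group differed from each other for most members at once. Of the 33 members, 31 had their lowest 2-week value on array 2, 26 their highest on array 3, and 24 their lowest 4-week value on array 2. On regular diet, 22 were lowest on array 5. The untreated arrays differed likewise, with 25 members highest on array 1 and 25 lowest on array 3. The member medians there were 0.34, 0.00 and -0.19. Median values over the members on the 2-week arrays were 2.26, 1.1 and 2.85, and on the 4-week arrays 1.70, 1.1, 2.43 and 1.49. Among the 3 groups after the start of CPZ, the member level varied within each group by more than the group medians differed from each other.

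On regular diet the order of the arrays differed between members. Arrays 1 and 2, which were the most alike of all pairs of that group but 1, with a median absolute difference of 0.204 between their probes, were the 2 highest of the 6 for 16 of 33 members (48.5%), where they were the 2 highest for 21.9% of all genes. The gap was widest for Trim30a, at 4.37 or more on these 2 arrays and at most 2.48 on the other 4. For Lgals3bp the values were at least 5.20 against at most 3.44, and for Sp100 at least 3.04 against at most 1.73. All 5 nucleic acid sensors, Bst2, Parp9 and Parp14 also had arrays 1 and 2 on top.

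Other members did not follow this order. Ifit1 read 2.08 and 3.07 on arrays 1 and 2, and 3.60 and 3.40 on arrays 4 and 6. Usp18 read 2.72 and 3.33 on arrays 1 and 2, and 3.80 and 4.03 on arrays 4 and 6. Ifit3, Isg15, Irf7, Rsad2, Oasl2, Rtp4 and both guanylate-binding proteins likewise had at least 1 of arrays 3 to 6 above array 1. Without arrays 1 and 2, an alternative chosen after seeing the data, 15 members were called on regular diet among 166 of all genes, 8 after 2 weeks among 89 and 11 after 4 weeks among 184.

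Markers of microglia, the resident macrophages of the brain, moved with that split. The median of 13 microglia markers, all well above background on all 16 arrays, was 3.95 and 4.33 on regular diet arrays 1 and 2 and 0.96 to 1.09 on arrays 3 to 6, while the member median was 2.29 and 2.75 against 1.58 to 2.25. Over the groups, microglia markers ranged from -0.07 to 0.80 on untreated arrays, -0.02 to 1.00 after 2 weeks, 0.98 to 1.66 after 4 weeks and 0.96 to 4.33 on regular diet. On 2-week array 3 the members stood at 2.85 and the microglia markers at 0.73. The part of cell number in the level of the members was not tested. Of the markers with a probe, 9 of 10 for monocytes and macrophages, 7 of 8 for T and NK cells, 4 of 5 for B and plasma cells and 3 of 6 for neutrophils were well above background on at least 1 array. Ccr2 of monocytes, Ms4a1 of B cells and Ncr1 of NK cells were on none. The median of the 8 monocyte and macrophage markers tested was -0.35 to 0.24 on untreated arrays, 0.22 to 1.79 after 2 weeks, 0.32 to 0.59 after 4 weeks and -0.48 to 0.75 on regular diet. These markers went both ways on regular diet, with log2 changes from -0.52 to 4.31, and 2 of the 8 rose, Lyz2 by 4.31 and Ms4a7 by 3.75 (adjusted p = 0.00491 for each), the latter with 2 of 3 untreated arrays well above background. Lyz2 stood at 2.70 to 5.72 and Ms4a7 at 2.34 to 4.95 on the regular diet arrays, and their part in the level of the members was not tested. The median of the oligodendrocyte and myelin genes, which check the CPZ effect, was -1.97 to -4.88 after 2 weeks, -1.63 to -4.62 after 4 weeks and -3.88 to 0.51 on regular diet. Other lists also varied within groups. The median of choroid plexus markers was -2.1 to 3.1 after 4 weeks and -2.4 to 2.9 on regular diet. On regular diet that of cell cycle genes was -0.28 to 2.30, of astrocyte markers 0.36 to 0.73 and of endothelial markers -0.91 to 0.20. Their part in the level of the members was not tested.

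**Figure D4:**
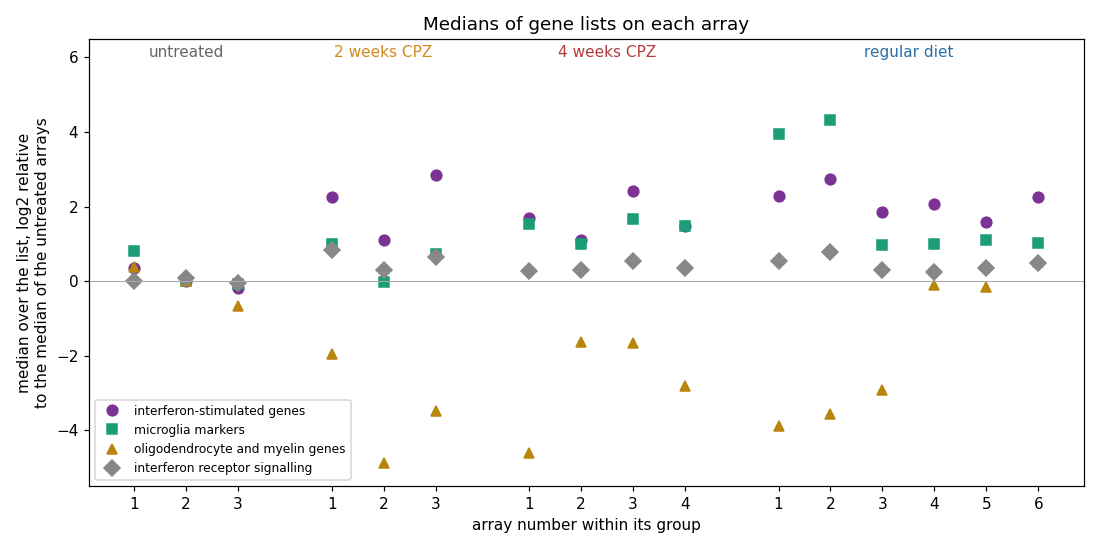
Each point is the median log2 value of a gene list on 1 array, relative to the untreated median. The interferon-stimulated genes lie between 1.1 and 2.85 on all arrays outside the untreated group, microglia markers stand at 3.95 and 4.33 on regular diet arrays 1 and 2, and the genes of interferon receptor signalling stay below 1.

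Genes elsewhere in the pathway were taken from a list of 101, of which 76 were tested. Of the 9 interferon genes themselves, 7 had a probe and none could be tested. Ifnb1 and the 2 alpha interferons measured were not well above background on any array, and Ifng was so on 1 array at most. This bounds what the arrays can detect and says nothing of interferon protein. The receptor chains, the receptor signalling genes and the sensing genes upstream of interferon gave no call in any comparison with untreated arrays, for 5, 10 and 13 genes tested, although single changes were as large as those of called members. On regular diet the log2 changes ranged from 0.28 to 1.61 over the receptor chains, from -0.073 to 2.90 over the receptor signalling genes and from -0.57 to 2.38 over the sensing genes. The largest among the signalling genes were those of Ptpn6, a phosphatase of blood cells and microglia, at 2.90 (adjusted p = 0.0752), and of Socs3, a feedback inhibitor of cytokine receptors, at 2.01 (adjusted p = 0.0752). Tlr7, a sensor of single-stranded RNA, had the largest among the sensing genes, at 2.38 (adjusted p = 0.204). Ptpn6 and Tlr7 were highest on regular diet arrays 1 and 2. Ifnar1, a chain of the type I receptor, changed by -0.097, 0.058 and 0.28 on the log2 scale after 2 weeks, after 4 weeks and on regular diet, and Ifnar2, the other chain, by 0.39, 0.56 and 1.02.

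The remaining genes of that list are other interferon targets. In the list as a whole 5 of 76 genes rose after 2 weeks (Cxcl10, Gbp6, Ifi204, Igtp and Iigp1), 1 after 4 weeks (Cxcl10) and 18 on regular diet, beside 0.116%, 0.0146% and 0.864% of all genes. Gbp6 and Ifi204 passed the filter through the treated groups, with 1 of 3 untreated arrays well above background. With the dim untreated arrays raised to the faintest such signal, the 2-week log2 change of Ifi204 went from 3.78 to 3.37. That of Gbp6 stayed at 3.27. Cxcl10, a chemokine that draws T cells, measured 0.00, 1.41 and -0.92 on the untreated arrays, 6.15, 4.58 and 6.79 after 2 weeks, 4.21, 4.55, 5.89 and 4.37 after 4 weeks, and from 4.46 through 5.22 to 5.91 on regular diet. Its log2 changes of 5.68, 4.59 and 5.04 exceeded those of every member and passed in all 3 comparisons (adjusted p = 0.0106, 0.0302 and 0.00262). The genes that lean towards interferon gamma included Gbp6, Igtp and Iigp1, GTPases of the guanylate-binding and immunity-related families, and 7 of 13 rose on regular diet. Oas1a and Oasl1, relatives of the OAS members, rose there too, Oas1a by 4.02 on the log2 scale (adjusted p = 0.00491) with 1 of 3 untreated arrays well above background, or 3.91 with the other two raised to the faintest such signal, and Oasl1 at least 3.64-fold, since none of the untreated arrays showed its probe well above background.

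The other genes called on regular diet were Epsti1, Gbp7, Ifi204, Irgm1, Irgm2, Psmb8, Slfn2, Tor3a, Trim21, Trim34a, Uba7 and Ube2l6. Epsti1 was at least 2.76-fold higher, since no untreated array showed it well above background. Ifi204 and Slfn2 were well above background on 1 of 3 untreated arrays, and Trim34a on 2 of 3. With the dim untreated arrays raised as before, their log2 changes were 4.00, 2.29 and 1.81. Uba7 and Ube2l6 encode the activating and conjugating enzymes of ISG15, and their log2 changes were 2.29 (adjusted p = 0.0184) and 1.24 (adjusted p = 0.0215). Psmb8, a subunit of the immunoproteasome, changed by 2.62 (adjusted p = 0.0423), and Psmb9, another subunit, by 2.24 (adjusted p = 0.0571). Irf1 changed by 1.08 (adjusted p = 0.0702). Irf8, a factor that microglia also express at rest, changed by 3.12 (adjusted p = 0.0593), and its 2 highest values were on regular diet arrays 1 and 2.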

How the data were processed

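Corpus callosum RNA was measured on 16 single-colour arrays, 4 to a slide. The authors deposited the background-subtracted signal intensity of each spot from Agilent Feature Extraction, version 11.0.1.1 per the file headers, and log2 values made in GeneSpring by scaling each array at its 75th percentile. That table is centred, probe by probe, on the untreated median, as its values show. Its columns were the main values, and scanner files gave the background flags. Each column matched 1 scanner file exactly (r of 1, next best at most 0.883). Probe accessions were named through RefSeq genes on GRCm38.p6, which covered 66.7% of probes. The members and lists were chosen with earlier results of these data known.

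A probe was kept if at least 1 group had it well above background throughout (27778 probes), and a gene was given by its brightest such probe. The 4 groups were fitted in limma 3.58.1 (R 4.3.3), with 12 residual degrees of freedom and a median residual SD of 0.386, tested on simulated data. The number of arrays limits the precision. A fold against a group without any array above background is a lower bound: each dim array counts at its own signal or, if greater, at the faintest signal of the array that was well above background. Values by array, with the lowest, median and highest for the 6 regular diet arrays, are given for 12 genes fixed in the rule, for every other member called against untreated arrays (Oas2 by bounds only), and for the 3 largest changes in each such comparison among probes above background throughout. Promoter sequences came from RefSeq. The alternatives were other scalings, filters, background correction (normexp with an offset of 50 on median signals, since no mean signal was given), slide or array number as a block, array weights, the methods' test and leaving arrays out. One gene of the pathway list is not reported here by name.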

Additional observations from a re-analysis of the deposited data

Results flagged for a closer look

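Values were checked for arrays far from the rest of their group in 68 sets of 4 or 6 arrays, of which chance alone would flag about 1 in 20, and 6 were flagged. On 4-week array 3, Usp18 at 3.38, Gbp2 at 2.98, Ifitm3 at 2.51 and Ifih1 at 1.97 were far above the other 3 arrays of the group. That array was the highest of its group for 22 of 33 members and had 59.2% of probes well above background. On regular diet array 5, Oas2 at 2.29 and Ifi44 at 1.71 were far below the other 5 arrays. No untreated array showed Oas2 well above background, so its value only orders the 6 regular diet arrays. On array 5, 22 of 33 members were lowest.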

How the results depend on the processing

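Counts of called genes moved more than medians did. The main fit called 5, 0 and 22 members after 2 weeks, after 4 weeks and on regular diet. It called 5, 1 and 18 other pathway genes, among 24, 3 and 178 of all genes. Counts over all genes are given in the Results for some of the alternatives only. For the others, a change in the counts below cannot be told from a change over all genes. Beside the main fit, the alternatives gave the following. Quantile normalization gave 1 member and 1 pathway gene after 2 weeks, and median scaling 2 and 1. Normexp background correction gave 0, 0 and 8 members and 1, 0 and 3 pathway genes, with member medians of 1.02, 0.86 and 1.11. Without a filter on dim probes 3 members were called after 2 weeks, and with probes above background on all 16 arrays 3 pathway genes after 2 weeks and 11 on regular diet. Slide as a fixed block gave 10, 16 and 25 members and 8, 9 and 23 pathway genes, and slide as a random block 10 and 7 members and 9 and 5 pathway genes in the CPZ comparisons. Fitting only the 2 groups compared gave 0 members and 0 pathway genes in either CPZ comparison, and a fit without the regular diet arrays gave 0 members, and 2 and 2 pathway genes. The methods' test gave 0 members after 2 weeks and on regular diet, and 1 pathway gene in each. The scanner files as recorded gave 0 members and 0 pathway genes in all 3 comparisons with untreated arrays, and medians of 0.59, -0.55 and -0.089, and -1.27 between 4 and 2 weeks. Array weights did not converge, with a weight of 210 on 2-week array 3 and at most 4.02 on any other array. They gave 29 and 25 members and 43, 19 and 35 pathway genes, with a 2-week median of 3.06, and 11 members and a median of -0.96 between 4 and 2 weeks. No count over all genes is given beside these, so they cannot be told from a general rise in calls. Leaving out the 3 arrays with the fewest probes above background, chosen after seeing the data, gave 1 and 5 members and 1, 2 and 10 pathway genes. Leaving out regular diet arrays 1 and 2, also chosen then, gave 8 and 11 members and 10 and 11 pathway genes in the CPZ comparisons. The causes were not tested.

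Leaving out 1 array at a time gave 0 to 15, 0 to 6 and 0 to 24 members, 0 to 12, 0 to 2 and 1 to 23 pathway genes, and 0 to 1 member between regular diet and 4 weeks. The medians ranged from 1.71 to 2.54, 1.42 to 1.95 and 1.98 to 2.34. The change of Stat2 after 4 weeks, 0.043, ranged from -0.11 to 0.18 and turned negative without untreated array 1 (-0.11) or 4-week array 1 (-0.09). Array numbers shared between groups did not pair the arrays, with correlations of deviations from -0.80 to 0.34. With the number as a replicate block, 0, 0 and 1 members and 0, 0 and 2 pathway genes were called. Signal over background limits Oas2, Oas3 and the interferon genes.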
